A study of Mus musculus with 12 samples.

Results

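The forkhead genes outside the Foxa group, a family of winged-helix transcription factors, were followed in mouse embryonic stem (ES) cells that lacked Ring1B, Eed or both. The genes were chosen by name, from the gene symbol given to each probe set in the platform annotation. Of 31 forkhead genes on the list, 29 had at least 1 probe set, out of 18193 named genes on the array, and Foxe1 and Foxr2 were not analysed here. The array also has 5 forkhead symbols that are not on the list (Foxb2, Foxd2, Foxd4, Foxe3 and Foxs1), and they enter none of the counts. The 29 genes had 73 probe sets, and 25 of the genes had a probe set bright enough to be tested, out of 13984 genes tested in all. Messenger RNA was measured on Affymetrix Mouse 430_2.0 arrays, which read a transcript with sets of short probes, in 4 genotypes, each with 3 biological replicates, on 12 arrays. Wild type cells were compared with a Ring1B mutant and an Eed mutant, each made by gene targeting, and with a Ring1B/Eed double mutant line, made by targeting Ring1B in cells that already lacked Eed. All the cells were ES cells whose undifferentiated state was judged from the shape of the colonies. The labels name no second line of any genotype, so each comparison of genotypes is also a comparison of cell lines, and the p-values measure the spread between arrays of 1 line.

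Forkhead proteins bind DNA through a conserved winged-helix domain, and many of them direct the formation of particular tissues: Foxc and Foxf genes act in mesoderm and its derivatives, Foxd genes in neural crest, kidney and forebrain, Foxj1 in ciliated cells and Foxl2 in the ovary. Others act in most cells, such as the FoxO factors, which are held out of the nucleus by insulin and Akt signalling, and Foxm1, which drives genes of mitosis. Polycomb proteins keep developmental regulators silent in ES cells. Eed is a core subunit of Polycomb repressive complex PRC2, which methylates histone H3 at K27, and Ring1B, encoded by Rnf2, is the E3 ligase of PRC1, which ubiquitinates histone H2A. Mammalian Polycomb targets commonly have promoters rich in CpG, the dinucleotide of a C followed by a G.

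The promoter sequences of 3 forkhead genes that rose in mutant cells and of Foxp1, which fell, are given to let their CpG content be seen beside their behaviour. Each is the 250 bases before a RefSeq transcription start in assembly GRCm38.p6, read 5′ to 3′ on the gene's strand, with every CpG in capitals. Foxc1 lies at chr13:31806396-31806645 on the plus strand and holds 29 CpGs. Foxd1 lies at chr13:98353995-98354244 on the plus strand and holds 12. Foxf2 lies at chr13:31625566-31625815 on the plus strand and holds 21. Foxp1 has 3 entries, and the one with the most CpGs, 34, lies at chr6:99028299-99028548 on the minus strand.
Foxc1: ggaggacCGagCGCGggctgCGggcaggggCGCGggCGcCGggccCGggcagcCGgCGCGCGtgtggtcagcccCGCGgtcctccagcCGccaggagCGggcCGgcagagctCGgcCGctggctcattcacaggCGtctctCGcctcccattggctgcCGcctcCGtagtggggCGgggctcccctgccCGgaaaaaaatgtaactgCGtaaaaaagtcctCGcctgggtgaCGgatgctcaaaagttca
Foxd1: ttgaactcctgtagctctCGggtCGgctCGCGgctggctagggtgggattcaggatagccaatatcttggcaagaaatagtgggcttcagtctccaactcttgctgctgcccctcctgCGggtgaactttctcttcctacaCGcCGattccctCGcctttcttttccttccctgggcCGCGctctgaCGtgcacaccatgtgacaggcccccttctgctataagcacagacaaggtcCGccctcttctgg
Foxf2: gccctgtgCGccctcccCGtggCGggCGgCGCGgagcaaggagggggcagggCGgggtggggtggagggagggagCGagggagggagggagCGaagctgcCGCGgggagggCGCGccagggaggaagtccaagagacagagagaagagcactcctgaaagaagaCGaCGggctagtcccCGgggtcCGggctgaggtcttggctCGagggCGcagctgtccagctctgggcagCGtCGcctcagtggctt
Foxp1: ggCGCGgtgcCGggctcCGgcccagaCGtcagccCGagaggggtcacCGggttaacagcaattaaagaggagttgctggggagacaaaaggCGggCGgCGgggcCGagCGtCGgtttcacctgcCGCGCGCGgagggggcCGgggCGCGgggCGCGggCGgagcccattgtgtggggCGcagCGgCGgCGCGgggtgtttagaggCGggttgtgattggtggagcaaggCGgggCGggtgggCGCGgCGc

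All values below are MAS5 signals, scaled intensities that were deposited with a trimmed mean of 100 on every array. Replicate arrays correlated at 0.963 to 0.984 over all log2 values. The signal for Eed fell from 1430 ± 159 (SD, n = 3) in wild type to 37.8 ± 13.1 without Eed and 71.2 ± 21 without both, and that for Rnf2 on its brightest probe set from 851 ± 124 to 468 ± 65.7 without Ring1B and 383 ± 18.8 without both. The ES cell factor Pou5f1 stood at 2735 ± 294 in wild type, 2447 ± 241 without Ring1B, 1887 ± 56.8 without Eed and 1550 ± 148 without both, so it was present in every genotype. The 4 arrays numbered 2 stood apart: deviations from the genotype means correlated at 0.265 to 0.614 over their 6 pairs, and results that rest on them are given with and without them. A signal from bulk RNA does not tell fewer expressing cells from less RNA per cell, and the number of arrays limits the precision.

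A few tissue regulators rose and Foxp1 fell, while most of the 25 forkhead genes tested passed no test. Changes are log2 differences of signal plus 5 from a limma model, and a gene is called at a Benjamini-Hochberg adjusted p under 0.05 over all 13984 genes. In Ring1B deficient cells 3 forkhead genes were called higher than wild type (Foxc2, Foxd1 and Foxq1), against 4.68% of all genes tested, and 2 lower (Foxk2 and Foxp1), against 2.5%. In Eed deficient cells 5 were called higher (Foxc1, Foxc2, Foxd1, Foxj2 and Foxq1), against 10.8% of all genes, and 1 lower (Foxp1), against 4.56%. In double deficient cells 8 were called higher (Foxc1, Foxc2, Foxd1, Foxf1, Foxf2, Foxj2, Foxl2 and Foxq1), against 19.5%, and 1 lower (Foxp1), against 11.4%. The median change of the 25 genes was 0.05 without Ring1B, 0.09 without Eed and 0.28 without both, where all genes had medians of -0.01, 0.03 and 0.10. Foxc2 and Foxd1 passed the brightness filter through mutant arrays alone, so they could enter the test only by being higher in a mutant. Centring each array on its median moved the median of all genes in double deficient cells by -0.25 and quantile normalization by -0.10. Under either of them the split in double deficient cells was 7 higher to 3 lower in place of 8 to 1, as Foxl2 was no longer called and Foxh1 and Foxn4 were called lower. All genes split at 12.1% higher to 22.5% lower under median centring and at 15.8% to 12.9% under quantile normalization. The 3 comparisons with wild type share the same wild type arrays. Where arrays of different genotypes are said not to overlap, the share of all genes that did the same was not counted.

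**Figure D1:**
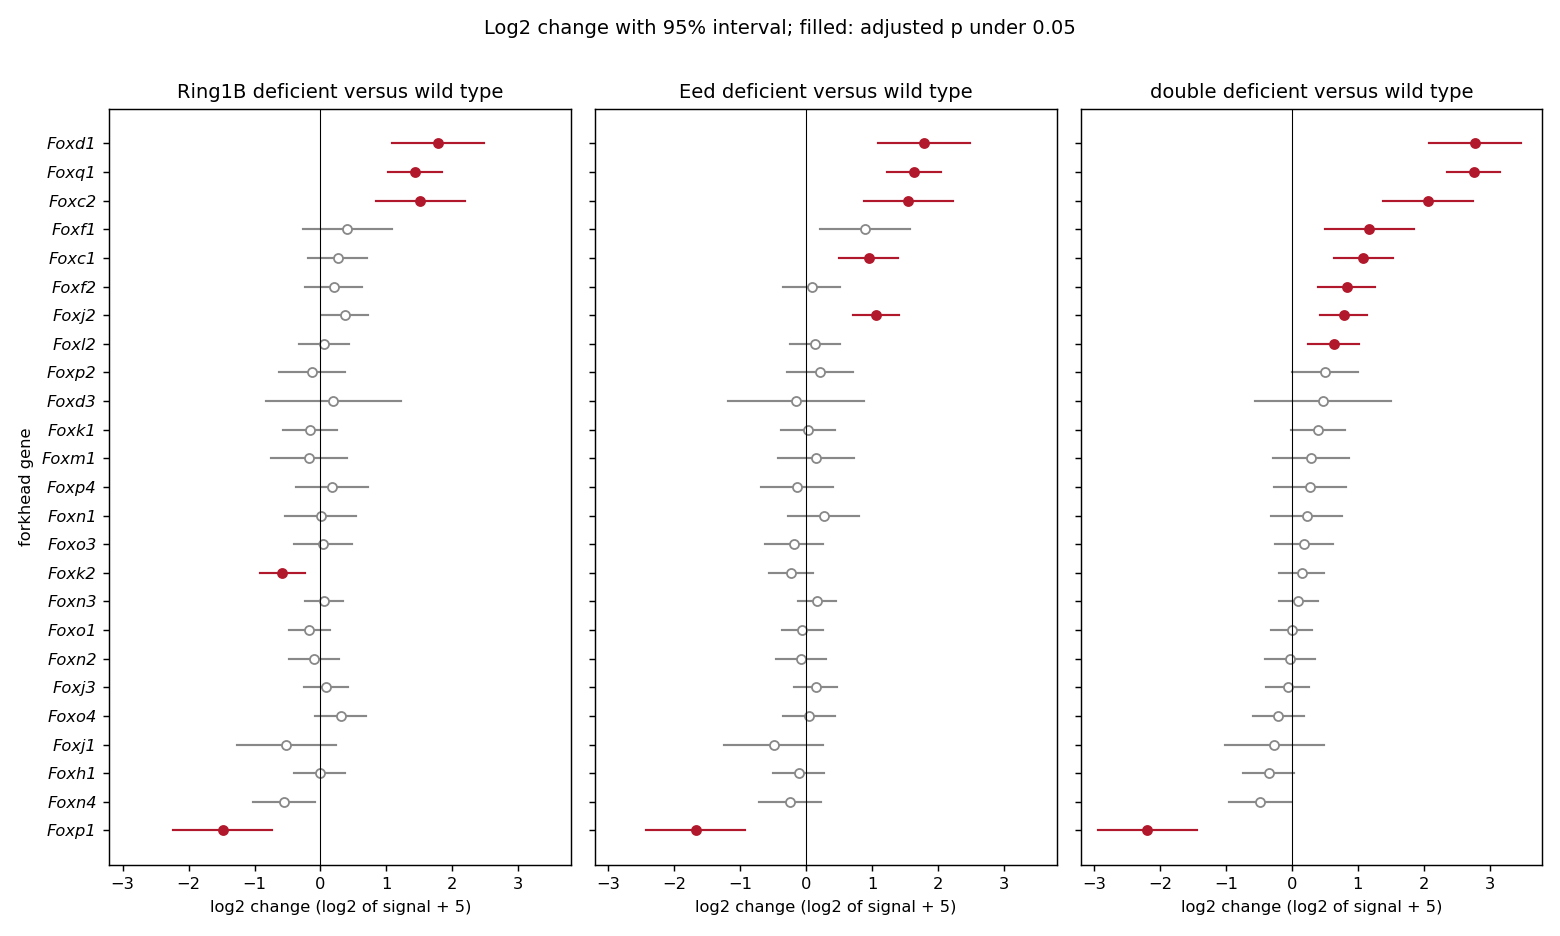
Change of each of the 25 tested forkhead genes against wild type in the 3 mutant genotypes. The log2 difference of signal plus 5 is drawn with its 95% confidence interval, and calls at an adjusted p under 0.05 are marked. In double deficient cells Foxq1 lies at 2.76 and Foxp1 at -2.19. Foxd1, at 2.78, was under the brightness threshold on all wild type arrays, so its place depends on the value added.

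Foxq1, a forkhead factor known from hair shafts and stomach epithelium, rose in every mutant and rose most in the double mutant. Its signals were 13.7, 25.0 and 21.8 on the wild type arrays and 61.9, 66.0 and 57.8 in Ring1B deficient cells. They were 73.3, 60.6 and 83.3 in Eed deficient cells and 170.5, 145.4 and 170.2 in double deficient cells. No mutant array overlapped wild type, and no double deficient array overlapped a single mutant. The log2 change was 1.44 (SE 0.19, limma adjusted p = 4.24e-04) without Ring1B, 1.64 (SE 0.19, adjusted p = 7.72e-05) without Eed and 2.76 (SE 0.19, adjusted p = 3.55e-07) without both. The double mutant stood 1.32 above Ring1B deficient cells (limma adjusted p = 6.25e-04) and 1.12 above Eed deficient cells (limma adjusted p = 0.0108). The latter call was lost without double deficient array 1 or array 3. The interaction, by which the double mutant departs from the sum of the 2 single changes on this scale, was -0.32 (95% confidence interval -0.90 to 0.26, limma adjusted p = 0.582). A separate probe set, 1438558_x_at, read 3.34 ± 1.35 in wild type, 44.0 ± 16.9 without Ring1B, 57.6 ± 30.3 without Eed and 176.7 ± 50.7 without both, the same order.

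Foxd1, a regulator of kidney stroma and ventral forebrain, was near background in wild type cells and rose in each mutant. Its signals were 2.66, 3.54 and 4.33 in wild type, all under the brightness threshold, which lay between 12.1 and 19.1 on the 12 arrays. They were 35.5, 14.7 and 26.3 without Ring1B, 33.1, 17.1 and 25.0 without Eed and 70.9, 32.1 and 65.5 without both. Every mutant array was above every wild type array, and in each mutant array 2 was the lowest. The changes were 1.78 (SE 0.32, limma adjusted p = 0.00433), 1.79 (SE 0.32, adjusted p = 0.00225) and 2.78 (SE 0.32, adjusted p = 3.36e-05). The double mutant change was 3.60 with 1 and 1.65 with 20 added in place of 5, so its size has no fixed value. Foxd1 in the double mutant was 1.00 above Ring1B deficient cells (limma adjusted p = 0.0456), and 0.99 above Eed deficient cells (95% confidence interval 0.30 to 1.69, limma adjusted p = 0.136), which was not called.

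Foxc2, which acts in lymphatic vessels, somites and kidney, was also dim in wild type. It read 2.04, 0.811 and 10.8 there, 22.2, 19.5 and 17.8 without Ring1B, 16.0, 23.2 and 22.4 without Eed and 30.9, 28.5 and 34.5 without both. The mutant arrays all lay above the wild type arrays, and the double deficient arrays lay above both single mutants. The double mutant was not called against either of them, at 0.55 above Ring1B deficient cells (limma adjusted p = 0.237) and 0.52 above Eed deficient cells (limma adjusted p = 0.421). The changes were 1.52 (SE 0.31, limma adjusted p = 0.0102), 1.55 (SE 0.31, adjusted p = 0.00491) and 2.07 (SE 0.31, adjusted p = 3.05e-04). Without the 4 arrays numbered 2, Foxc2 was no longer called in Ring1B deficient (1.24, limma adjusted p = 0.0879) or Eed deficient cells (1.18, limma adjusted p = 0.0603).

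**Figure D2:**
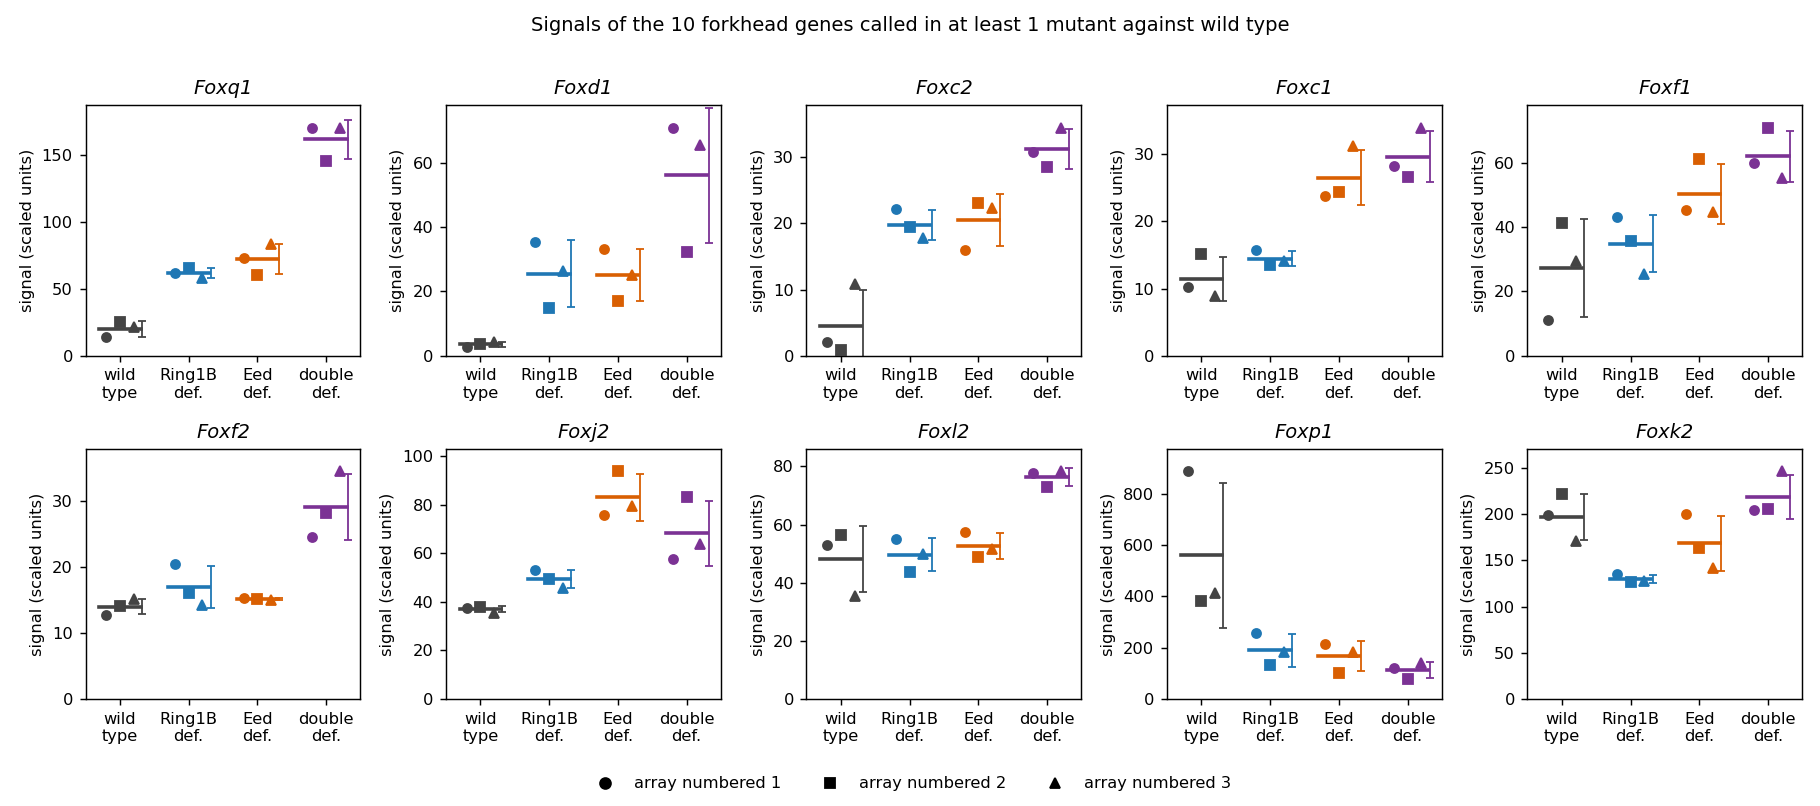
Signals of the forkhead genes called in at least 1 mutant against wild type, 1 panel a gene. Points are the 3 arrays of each genotype, with a symbol for the array number, horizontal lines are means and bars are SDs. Foxq1, Foxd1 and Foxc2 step up in every mutant, Foxf2 and Foxl2 in the double mutant, and Foxp1 steps down from a wild type mean of 561 to 113.

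Foxc1, the close relative of Foxc2 that also acts in mesoderm and neural crest of the eye and skull, rose in the 2 genotypes without Eed. It read 10.2, 15.2 and 8.94 in wild type and 15.7, 13.5 and 14.2 in Ring1B deficient cells, which overlapped. It read 23.8, 24.4 and 31.2 without Eed and 28.3, 26.7 and 33.9 without both, all above every array with Eed. The changes were 0.95 (SE 0.21, limma adjusted p = 0.00802) and 1.09 (SE 0.21, adjusted p = 0.00163), and 0.26 in Ring1B deficient cells (95% confidence interval -0.19 to 0.71, limma adjusted p = 0.548). Eed deficient cells were 0.69 above Ring1B deficient cells (limma adjusted p = 0.0841), which was not called, and double deficient cells 0.83 above them (limma adjusted p = 0.0155), which was.

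Foxf1, needed in lateral and splanchnic mesoderm and in lung vessels, rose in the double mutant on both its probe sets. The brighter one, 1434939_at, read 11.1, 41.2 and 29.5 in wild type and 43.2, 35.8 and 25.4 in Ring1B deficient cells. It read 45.4, 61.1 and 44.5 without Eed and 59.9, 70.7 and 55.1 without both, where no array overlapped the wild type ones. The change was 0.40 (SE 0.31, limma adjusted p = 0.529) without Ring1B, 0.89 (SE 0.31, adjusted p = 0.0722) without Eed and 1.17 (SE 0.31, adjusted p = 0.0125) without both. Without wild type array 2 the Eed deficient change was 1.22 and called (limma adjusted p = 0.0187). The dimmer probe set, 1423013_at, read 12.7, 2.47 and 5.15 in wild type and between 18.3 and 34.4 on every mutant array. In a fit of all 25249 probe sets of 1 gene it was called higher in each mutant, at 1.51, 1.42 and 1.53 (limma adjusted p = 0.00845, 0.00632 and 0.00178), where 3.31%, 8.62% and 16.6% of probe sets were called higher. The 2 probe sets thus differ on whether the single mutants rose, and their mean was called in Ring1B deficient (0.96, limma adjusted p = 0.00208) and Eed deficient cells (1.16, limma adjusted p = 2.95e-04).

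Foxf2, its relative in gut and palate mesenchyme, rose in the double mutant. It read 12.8, 14.1 and 15.1 in wild type, 20.4, 16.1 and 14.3 without Ring1B, 15.2, 15.1 and 15.0 without Eed and 24.5, 28.1 and 34.4 without both. The double deficient arrays were above all the others. The change was 0.83 (SE 0.20, limma adjusted p = 0.0068), against 0.20 (limma adjusted p = 0.646) in Ring1B deficient and 0.09 (limma adjusted p = 0.824) in Eed deficient cells. Foxf2 in the double mutant was 0.63 above Ring1B deficient cells (limma adjusted p = 0.0418) and 0.75 above Eed deficient cells (95% confidence interval 0.32 to 1.18, limma adjusted p = 0.0722). Its interaction of 0.55 did not pass the test (limma adjusted p = 0.356).

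Foxj2, a widely expressed activator, rose in the 2 genotypes without Eed. Its signals were 37.5, 37.7 and 35.6 in wild type and 53.1, 49.6 and 45.9 in Ring1B deficient cells. They were 75.6, 93.6 and 79.5 without Eed and 57.7, 83.1 and 63.6 without both, above all arrays of the other 2 genotypes. The change was 1.06 (SE 0.16, limma adjusted p = 7.42e-04) without Eed and 0.79 (SE 0.16, adjusted p = 0.00276) without both. Ring1B deficient arrays did not overlap wild type either, but their change of 0.38 (SE 0.16, limma adjusted p = 0.212) was not called.

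Foxl2, the factor that maintains ovarian granulosa cells, was called higher in the double mutant and the call was fragile. It read 53.0, 56.4 and 35.4 in wild type and 77.9, 72.9 and 78.3 in double deficient cells, with no overlap. Ring1B deficient cells read 55.2, 43.9 and 49.8 and Eed deficient cells 57.6, 48.8 and 51.6, within or next to the wild type range. The double mutant change was 0.63 (SE 0.18, limma adjusted p = 0.0156). It was 0.45 (limma adjusted p = 0.0707) without wild type array 3, 0.62 (limma adjusted p = 0.0505) without double deficient array 3, 0.47 (limma adjusted p = 0.0536) under quantile normalization and 0.38 (limma adjusted p = 0.112) under median centring.

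Foxp1 fell in every mutant. It is a repressor active in lymphocytes, heart and neurons whose transcript is also spliced in a form particular to ES cells. On 1435222_at, the brightest of its 8 probe sets, it read 886.9, 383.6 and 413.3 in wild type and 256.4, 131.3 and 182.1 in Ring1B deficient cells. It read 215.5, 102.4 and 183.7 without Eed and 121.1, 78.9 and 139.0 without both. All wild type arrays were above all mutant arrays, and array 2 was the lowest of each genotype. The changes were -1.48 (SE 0.35, limma adjusted p = 0.0205), -1.67 (SE 0.35, adjusted p = 0.0058) and -2.19 (SE 0.35, adjusted p = 4.36e-04). The Ring1B deficient call was lost without wild type array 1 (-1.10, limma adjusted p = 0.0789), Ring1B deficient array 2 (-1.25, limma adjusted p = 0.0811) or Ring1B deficient array 3 (-1.48, limma adjusted p = 0.0658).

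The fall was seen across the Foxp1 probe sets. In the fit of all probe sets, 6 of the 8 were called lower in Ring1B deficient cells, where 1.71% of all probe sets were, 8 in Eed deficient cells, against 3.81%, and 7 in double deficient cells, against 9.52%. The 8 probe sets read 1 gene from the same arrays and are not independent. The smallest change in the double mutant was that of 1435221_at, which read 62.1 ± 17.4 in wild type and 46.7 ± 6.42 in double deficient cells (-0.35, limma adjusted p = 0.233). The dimmest, 1443258_at, went from 24.2, 24.1 and 17.4 in wild type to between 1.83 and 3.24 on the 6 single mutant arrays, with 8.56, 2.57 and 2.80 in the double mutant. The probe sets therefore did not fall to the same extent, and which exons they cover was not analysed here.

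**Figure D3:**
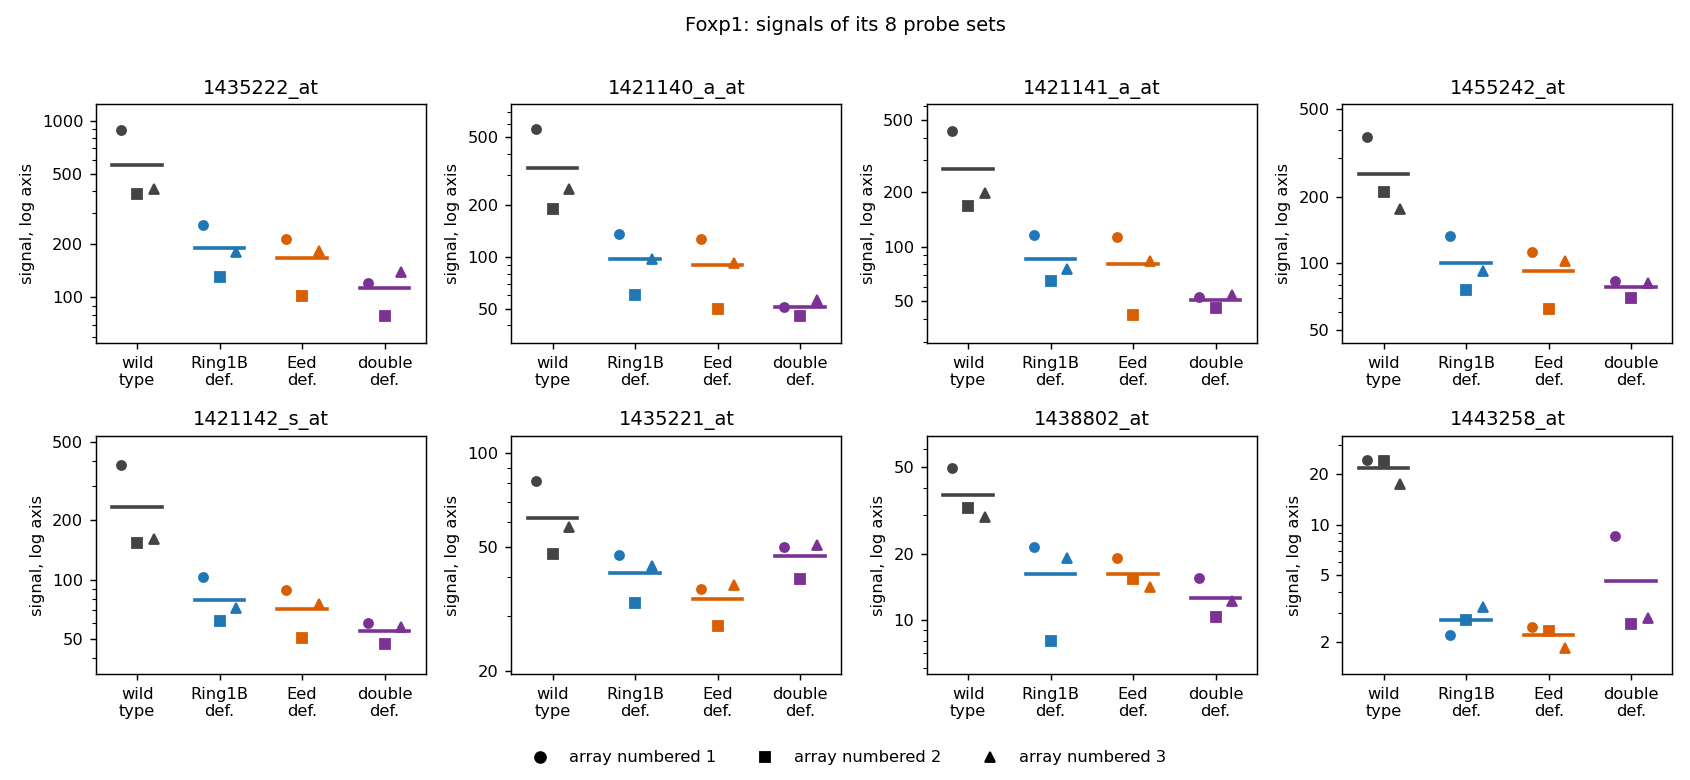
Signals of the 8 Foxp1 probe sets on a log axis, 1 panel each, with the 3 arrays of each genotype as symbols and the mean as a line. The wild type arrays lie above the single mutant arrays in all 8 panels, and only 1435221_at has double deficient arrays (up to 50.9) that overlap wild type (from 47.3).

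Foxk2, a widely expressed factor that partners with the deubiquitinase Bap1, was called lower in Ring1B deficient cells. Its brightest probe set, 1452753_at, read 198.9, 221.3 and 171.3 in wild type and 134.7, 126.8 and 127.6 in Ring1B deficient cells, with no overlap. It read 199.8, 163.4 and 141.7 without Eed and 204.7, 205.4 and 246.1 without both, which overlapped wild type. The Ring1B deficient change was -0.58 (SE 0.16, limma adjusted p = 0.0395), against 0.15 (limma adjusted p = 0.502) in the double mutant. The difference itself was tested: Ring1B loss in cells without Eed minus Ring1B loss in cells with Eed gave 0.96 (SE 0.22, 95% confidence interval 0.48 to 1.43, limma adjusted p = 0.0446). That made Foxk2 the 1 forkhead gene with a called interaction, against 0.708% of all genes called in that direction, while 0 were called in the other, against 1.19%. Neither call was firm. Leaving out a single array ended the Ring1B deficient call in 8 of 12 cases (adjusted p up to 0.119) and the interaction call in 10 of 12 (adjusted p up to 0.135). The probe sets also differed: 1428353_at read 176.1 ± 23.7, 126.5 ± 11.6, 123.0 ± 12.5 and 129.1 ± 11.4 in wild type, Ring1B, Eed and double deficient cells, low in all 3 mutants. In the fit of all probe sets it was called lower without Eed (-0.50, limma adjusted p = 0.0483), where 3.81% of probe sets were. In the same order, 1428354_at read 125, 86.1, 131 and 130 and 1442933_at 50.1, 33.7, 47.6 and 52.0. Both were lowest without Ring1B but not called there (limma adjusted p = 0.226 and 0.192). The dim 1440689_at read 22.8, 22.0, 23.1 and 27.7. Foxk1, the paralogue of Foxk2, was not called, with 62.4 ± 14.8 in wild type and 82.5 ± 2.79 in the double mutant (0.40, limma adjusted p = 0.132), though without wild type array 1 it was (0.57, limma adjusted p = 0.0423). Its other probe sets did not rise: 1451752_at went from 35.8 ± 15.8 to 28.6 ± 4.94 and 1421759_a_at, which did not pass the filter, from 13.4 ± 1.57 to 3.08 ± 0.993.

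The forkhead genes best known from ES cells and gastrulation did not pass the test. Foxd3, a factor of pluripotent cells and neural crest, read 81.5, 25.0 and 41.1 in wild type, 65.2, 30.2 and 67.8 without Ring1B, 76.1, 18.7 and 40.2 without Eed and 79.3, 36.0 and 87.9 without both. The spread within each genotype exceeded the differences between them, array 2 was the lowest throughout, and the interval of the double mutant change was wide (0.47, 95% confidence interval -0.55 to 1.50). Foxh1, the partner of Smad proteins in Nodal signalling, read 96.9 ± 1.84 in wild type and 75.0 ± 0.963 in the double mutant (-0.35, limma adjusted p = 0.159). Its other 2 probe sets changed less, from 72.2 ± 4.62 to 69.5 ± 8.68 and from 59.3 ± 7.58 to 58.9 ± 5.66.

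The FoxO factors, the effectors that Akt holds out of the nucleus, were not called against wild type. Foxo1 read 119 ± 12.4 in wild type and 119 ± 10.01 in the double mutant, a change of -0.0017 whose 95% confidence interval ran from -0.31 to 0.31. Foxo3 read 207 ± 55.8 and 230 ± 5.003 (0.18, limma adjusted p = 0.521). Its other probe sets differed in direction in the fit of all probe sets, 1434831_a_at at 0.39 (limma adjusted p = 0.156) and the dimmer 1450236_at at -0.45 (limma adjusted p = 0.188). Foxo4 read 117 ± 28.1 in wild type, 143 ± 14.3 in Ring1B deficient and 99.6 ± 16.1 in double deficient cells, with no call against wild type. Its double deficient arrays (81.9 to 113.5) all lay below the Ring1B deficient arrays (134.5 to 159.9), a difference of -0.51 that was not called (limma adjusted p = 0.063) but was under quantile normalization and median centring. A dim second probe set of Foxo4, 1422149_at, did not fall. It read 5.51 ± 2.65 in wild type, 11.2 ± 1.24 without Ring1B and 13.7 ± 6.28 without both (0.80 against wild type in the fit of all probe sets, limma adjusted p = 0.0742). These are mRNA levels, and where the proteins were is not measured by the arrays.

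Among the FoxN genes, Foxn2 read 249 ± 6.48 in wild type and 248 ± 51.0 in double deficient cells (-0.03, 95% confidence interval -0.40 to 0.35), and Foxn3 196 ± 8.02 and 212 ± 25.8 (0.10, 95% confidence interval -0.19 to 0.39). Foxn4, which acts in retina and spinal cord progenitors, read 80.0, 61.7 and 90.4 in wild type, 60.1, 41.4 and 52.0 in Ring1B deficient and 53.3, 45.8 and 61.9 in double deficient cells. Its changes of -0.55 (limma adjusted p = 0.167) and -0.48 (limma adjusted p = 0.111) were not called, while under quantile normalization and median centring the double mutant one was. Foxn1, the thymus epithelium factor, was dim, between 9.69 and 20.3 over all arrays, and passed the brightness threshold on 6 of the 12.

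The other forkhead genes that were tested were not called against wild type. Foxj1, the master regulator of motile cilia, was dim and passed the threshold on 5 of the 12 arrays, with 9.06, 33.9 and 21.4 in wild type and 13.6, 20.9 and 12.3 in the double mutant. Its relative Foxj3 read 238 ± 39.2 and 227 ± 30.5 (-0.06, 95% confidence interval -0.39 to 0.27). Foxm1, the driver of mitotic genes, had 3 bright probe sets that differed in direction. Between wild type and the double mutant the mean went from 64.3 ± 10.3 to 83.9 ± 32.5 on 1448833_at, from 34.5 ± 8.24 to 21.1 ± 7.54 on 1448834_at and from 26.6 ± 10.2 to 19.1 ± 12.6 on 1417748_x_at. The tested set, 1448833_at, changed by 0.29 (limma adjusted p = 0.437), and by 0.64 and called (limma adjusted p = 0.0496) without double deficient array 2, so the level of Foxm1 is uncertain here. In the fit of all probe sets 1448834_at was called between mutants: it was 1.38 higher in Eed than in Ring1B deficient cells (limma adjusted p = 0.0155) and changed by -1.41 from Eed to double deficient cells (limma adjusted p = 0.0244). Foxp2, a factor of brain circuits and a relative of Foxp1, read 15.2 ± 1.52 in wild type and 23.6 ± 3.73 in the double mutant (0.50, limma adjusted p = 0.122), though the mean of its probe sets was called there (0.63, limma adjusted p = 0.0469). Foxp4 read 42.6 ± 6.35 and 53.1 ± 10.5 (0.28, limma adjusted p = 0.423). Neither was called lower.

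Tissue regulators that did not pass the brightness filter were Foxb1, Foxi1, Foxl1 and Foxp3. Foxb1 ran from 5.71 to 13.9 over the 12 arrays, Foxi1 from 0.347 to 12.2, Foxl1 from 0.966 to 2.81 and Foxp3, the factor of regulatory T cells, from 6.54 to 17.5. Foxb1 read 13.9, 11.7 and 12.3 in the double mutant, above every array of the other genotypes, but was not tested. Signals of these 4 genes were under the filter and do not measure a difference between genotypes. Loss of Ring1B, Eed or both was thus not accompanied by a readable signal for 4 of the 29 forkhead genes on the array.

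Array number accompanied the level of some members, as it did for a share of all genes tested. In all 4 genotypes the array numbered 2 was the lowest of its 3 for Foxd3, Foxn2, Foxo4 and Foxp1, 4 genes of 25, where 9.79% of all genes tested did the same. It was the highest in all 4 for Foxj1, where 11.7% of all genes did. What sets these arrays apart is not given in the sources used here, and its part in the results was not tested. Without the 4 arrays, 24 of the forkhead genes were tested. The counts were then 2 higher and 1 lower without Ring1B, 4 higher and 1 lower without Eed and 9 higher and 1 lower without both. The share of all genes called was not counted without these arrays. Foxc2 left the calls of the single mutants, Foxk2 those of Ring1B deficient cells, and Foxm1 joined those of the double mutant (0.73, limma adjusted p = 0.0332).

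**Figure D4:**
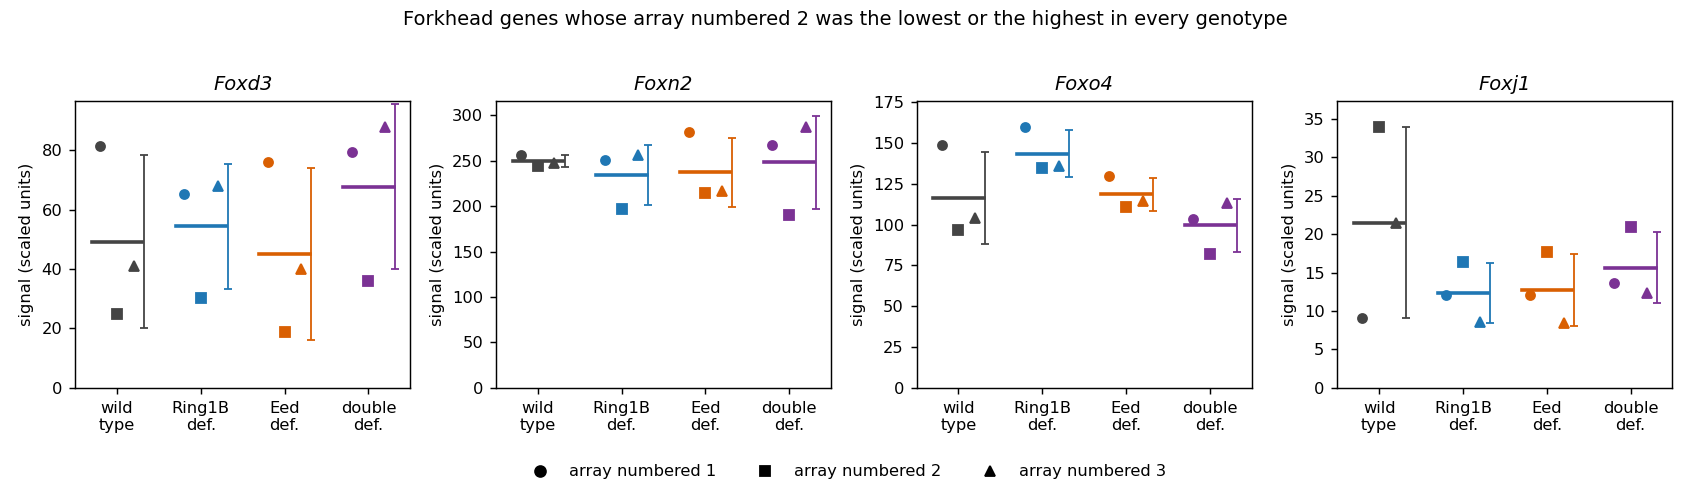
Signals of Foxd3, Foxn2, Foxo4 and Foxj1 on the 3 arrays of each genotype, with symbols for the array number, lines for means and bars for SDs. The squares, arrays numbered 2, are the lowest of each genotype for the first 3 genes and the highest for Foxj1. Foxd3, for example, reads 25.0, 30.2, 18.7 and 36.0 on them.

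The mutants were also compared with each other, which asks whether losing both proteins exceeded losing one. Against Ring1B deficient cells, 6 forkhead genes were called higher in the double mutant (Foxc1, Foxd1, Foxf2, Foxk2, Foxl2 and Foxq1), where 12.7% of all genes were, and 0 lower, where 5.98% were and where 1 had an unadjusted limma p under 0.05. This count fell to 3 without Ring1B deficient array 2, Ring1B deficient array 3 or double deficient array 1, to 2 without double deficient array 3, and to 3 without the arrays numbered 2 and under each other scaling. Foxk2 and Foxq1 were among the genes called in each of these. Against Eed deficient cells, Foxq1 was the 1 gene called higher, where 1.07% of all genes were, and 0 were called lower, where 0.822% were and where 0 had an unadjusted limma p under 0.05. Between the single mutants, Foxj2 was called higher in Eed than in Ring1B deficient cells (0.69, SE 0.16, limma adjusted p = 0.0313), where 3.37% of all genes were, and 0 were called lower, where 1.11% were and where 0 had an unadjusted limma p under 0.05. The Foxj2 call was lost without Ring1B deficient array 1, 2 or 3, without Eed deficient array 2 or 3, without the arrays numbered 2 and under both other scalings.

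The Foxa genes, which the group leaves out, were counted beside them. All 3 were called higher in the double mutant, with a median change of 1.05, where 19.5% of all genes were. In each single mutant 2 of 3 were, against 4.68% of all genes without Ring1B and 10.8% without Eed. Foxa2, the endoderm regulator, went from 8.60 ± 2.32 in wild type to 45.3 ± 6.30 without Ring1B, 71.9 ± 5.66 without Eed and 99.0 ± 19.0 without both (2.93 in the double mutant, SE 0.19, limma adjusted p = 1.85e-07). The wild type mean of Foxa2 was under the lowest brightness threshold of any array, 12.1, so the size of its change depends on the value added. Foxa2 could also enter the test only by being higher in a mutant. Whether the 2 groups of genes differ was not tested. Of the 5 forkhead genes outside both groups, 3 were tested. Foxd2, a relative of Foxd1, went from 4.46 ± 1.12 in wild type, under the threshold on all 3 arrays, to 51.3 ± 14.7 in the double mutant (2.55, SE 0.29, limma adjusted p = 2.58e-05). Foxd2 too could enter the test only by being higher in a mutant. Foxs1 (0.94, limma adjusted p = 0.12) and Foxb2 (-0.20, limma adjusted p = 0.76) were not called in the double mutant.

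Genes that act upstream or downstream of the forkhead factors were counted from lists. Of 20 genes of the FoxO pathway tested, which run from insulin signalling to FoxO targets, 7 were called higher and 0 lower in the double mutant, with a median change of 0.42. Over all genes 19.5% were called higher and 11.4% lower there, with a median of 0.10. At an unadjusted limma p under 0.05, 1 of them was lower. Under median centring the count was 6 higher and 2 lower with a median of 0.17. The 3 largest changes of the list were those of Sgk3, Pik3ca, a lipid kinase subunit, and Akt1. Sgk3 went from 83.0 ± 13.4 in wild type to 192 ± 16.3, 240 ± 48.2 and 210 ± 14.2 in the Ring1B, Eed and double mutants (1.30 in the double mutant, limma adjusted p = 8.03e-05). Pik3ca changed by 1.21 (limma adjusted p = 0.00301) and Akt1 by 1.17 (limma adjusted p = 8.66e-05) in the double mutant. In the single mutants 1 of the 20 was called higher and 2 lower without Ring1B, and 3 higher and 1 lower without Eed. Over all genes 4.68% were called higher and 2.5% lower without Ring1B, and 10.8% and 4.56% without Eed. Sgk3 and Akt1 encode kinases whose products keep FoxO proteins out of the nucleus. Of other kinases of the same pathway, Akt2 was called higher (0.51, limma adjusted p = 0.0199), but Sgk1 (-0.24, limma adjusted p = 0.151) and Pdpk1 (0.04, limma adjusted p = 0.878) were not.

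Of 12 tested genes of the Nodal pathway, in which Foxh1 acts, 3 were called higher and 2 lower in the double mutant, beside 19.5% and 11.4% of all genes. Their median of 0.02 turned to -0.23, with 1 higher and 5 lower, under median centring. Lefty1, an inhibitor of Nodal, went from 1463 ± 638 in wild type to 343 ± 202, 305 ± 241 and 450 ± 232 in the Ring1B, Eed and double mutants (-1.75 in the double mutant, limma adjusted p = 0.0416). Gsc, a gastrulation gene, rose from 3.26 ± 2.74 to 15.2 ± 1.87 (1.33, limma adjusted p = 0.00225), both low signals. In wild type Gsc was under the lowest brightness threshold, 12.1, so it could enter the test only by being higher in a mutant. Lefty2 at 398 ± 96.5 and 714 ± 267 was not called (0.78, limma adjusted p = 0.262).

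Of 10 tested mitotic targets of Foxm1, 4 were called lower in the double mutant, where 11.4% of all genes were, and 0 higher, with a median of -0.40, and 0 had an unadjusted limma p under 0.05 in the higher direction. Quantile normalization left 3 lower, and median centring gave 8. Aurkb, a mitotic kinase, went from 280 ± 44.9 to 146 ± 16.6 (-0.91, limma adjusted p = 6.22e-04), Ccnb2 from 1241 ± 167 to 761 ± 185 (-0.72, limma adjusted p = 0.0133) and Nek2 from 473 ± 38.4 to 345 ± 39.5 (-0.45, limma adjusted p = 0.0132). In each single mutant 0 of the 10 were called, and 1 had an unadjusted limma p under 0.05, in the lower direction. Of all genes, 2.5% were called lower without Ring1B and 4.56% without Eed.

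Of 11 ciliary genes linked to Foxj1, 2 were called lower in the double mutant, where 11.4% of all genes were, and 0 higher, with a median of -0.25, and 1 had an unadjusted limma p under 0.05 in the higher direction. The median was -0.50 under quantile normalization and under median centring, which gave 2 and 4 lower. Tekt1, a protein of the ciliary axoneme, went from 58.0 ± 16.9 to 20.2 ± 4.93 (-1.31, limma adjusted p = 0.00106) and Rfx3, a factor of ciliated cells, from 67.4 ± 14.8 to 31.2 ± 5.04 (-0.99, limma adjusted p = 0.0109). Dnaic1 was not called (-0.89, limma adjusted p = 0.124). Of 7 tested cofactors and partners of FoxP proteins, 1 was called higher, Gata6, which went from 22.6 ± 4.14 to 293 ± 18.9 (3.44, limma adjusted p = 2.81e-08) and is also a marker of primitive endoderm, and 1 lower, Mta1 (-0.74, limma adjusted p = 0.00599). Over all genes 19.5% were called higher in the double mutant and 11.4% lower. Hdac1, a deacetylase, was not called (-0.30, limma adjusted p = 0.166).

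Markers of other cell types were read beside the mesodermal forkhead genes. Of 15 fibroblast and feeder cell markers tested, 1 was called higher without Ring1B, 4 without Eed and 10 without both, where 4.68%, 10.8% and 19.5% of all genes were. In these genotypes 0 were called lower, and 1, 0 and 0 had an unadjusted limma p under 0.05. The 1 called higher without Ring1B was Pdgfra (11.4 ± 4.53 in wild type and 83.6 ± 28.4 there). Pdgfra was called higher in every mutant, at 83.7 ± 15.1 without Eed and 174 ± 43.8 without both. Its rise without Ring1B went against the list, and its rise alone is not read here as a rise of fibroblasts. The median change of the markers without Ring1B was -0.33, against -0.01 over all genes. Their summed signal ran from 1994 to 2590 in wild type, from 1571 to 2076 in Ring1B deficient and from 5753 to 6037 in double deficient cells, and read 2509, 2389 and 5971 on the 3 Eed deficient arrays. The largest changes in the double mutant were those of Pdgfra (3.45, limma adjusted p = 1.27e-06), S100a4 (2.41, limma adjusted p = 6.65e-04) and Col1a2 (2.13, limma adjusted p = 2.06e-04). The collagen Col1a1 ran from 32.2 to 50.8 in wild type and from 126.7 to 157.2 in the double mutant. The rise of Foxc1, Foxc2, Foxd1, Foxf1 and Foxf2 in the double mutant came with a rise of these markers, and their part in it was not tested. Without Eed deficient array 3, which had the high fibroblast sum, Foxc1 was at 0.84 (limma adjusted p = 0.043), Foxc2 at 1.49 (limma adjusted p = 0.0235) and Foxd1 at 1.77 (limma adjusted p = 0.011).

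Of 14 primitive endoderm markers, 11 were called higher without Ring1B, 12 without Eed and 12 without both, with medians of 2.43, 2.99 and 3.38, against the same 4.68%, 10.8% and 19.5% of all genes called higher. Sox17, an endoderm factor, went from 14.1 ± 3.46 in wild type to 194 ± 33.2, 358 ± 32.6 and 758 ± 87.4. Of 10 tested markers of paraxial and lateral mesoderm, 4, 5 and 6 were called higher. Hand2 led in the double mutant (2.74 ± 2.15 in wild type and 38.5 ± 4.26 there, a change of 2.52, limma adjusted p = 7.64e-06). Its wild type mean was under the lowest brightness threshold of any array, 12.1, so the size of that change depends on the value added. Hand2 could also enter the test only by being higher in a mutant. The same holds for Tbx1 of the mesoderm list and for Ttr and Afp of the endoderm list, so the counts include such genes. Of 7 neural crest markers, 1, 2 and 3 were called higher, with Tfap2a at 1.48 (limma adjusted p = 1.65e-04) in the double mutant. Of 12 ES cell markers, 7 were called lower in the double mutant and 0 higher, where 0 had an unadjusted limma p under 0.05 in the higher direction, with Fgf4 at -1.08 (limma adjusted p = 3.01e-04). Beside them 11.4% of all genes were lower, and quantile normalization left 4 of the 12. In the single mutants Pou5f1 was called lower without Eed (-0.53, limma adjusted p = 0.00605), and Tfcp2l1, a naive pluripotency factor, was called higher without Ring1B (0.89, limma adjusted p = 0.0129) and without Eed (1.00, limma adjusted p = 0.00337). The share of differentiated cells in the cultures was not measured, and its part in the forkhead changes was not tested.

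Among the forkhead genes with a promoter entry, CpG content did not separate those that rose from those that were not called. Promoter entries were found for 17 of the 29 genes on the array and for Foxr2, 21 entries in all. Foxq1, Foxc2 and Foxf1, which also rose, had no entry, so nothing is said of them here. Over 32841 RefSeq promoters the median was 6 CpGs in 250 bases, with quartiles of 2 and 16, and 92.1% held at least 1. Of the 21 entries, 12 were at or above the upper quartile. The 5 entries of genes called higher had a median of 22 CpGs (range 12 to 36) and the 8 of genes not called 20.5 (range 5 to 34). The 4 entries of genes called lower, which belong to Foxk2 and Foxp1 alone, had a median of 22.5 (range 3 to 48). The 4 entries of genes that were not tested had a median of 5 (range 3 to 7). The letters TGTTTAC, a core forkhead binding motif, were sought on both strands and found in 0 of the 21 entries, against 3.17% of all promoters, which says only that these letters are not in this window.

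**Figure D5:**
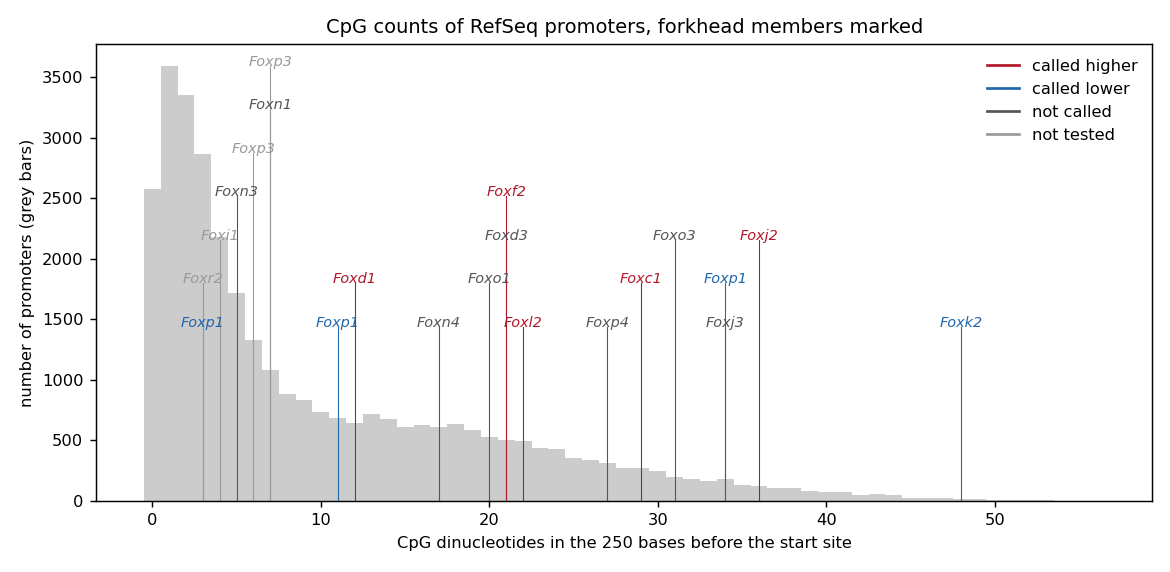
CpG dinucleotides in the 250 bases before each RefSeq start (x axis) against the number of promoters (grey bars, all 32841), with the entries of forkhead genes as vertical lines at their own counts. The heights of the lines have no meaning, colours give the call of the gene in any mutant, and genes called higher, from 12 to 36 CpGs, overlap those not called, from 5 to 34.

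Several of the forkhead genes that rose are chromosomal neighbours in the RefSeq order of GRCm38.p6. Foxq1, Foxf2 and Foxc1 are consecutive protein-coding genes on chromosome 13, and the next gene, Gmds, an enzyme of GDP-fucose synthesis, was also called higher in the double mutant (63.5 ± 13.1 in wild type and 102.3 ± 14.2 there, a change of 0.66, limma adjusted p = 0.017). On the other side, the adjacent Hus1b was not tested and Exoc2, beyond it, was not called (-0.35, limma adjusted p = 0.111). Foxf1 and Foxc2 are separated by Mthfsd, which was called higher at 0.52 (limma adjusted p = 0.044), and Foxl1, next to Foxc2, was below the filter. Of all genes tested, 19.5% were called higher in the double mutant, and whether neighbours were called more often was not tested. Beyond this second group of genes, Irf8 (0.63, limma adjusted p = 0.113), Cox4i1 (0.07, limma adjusted p = 0.639), 1700018B08Rik (0.23, limma adjusted p = 0.733) and Fbxo31 (-0.17, limma adjusted p = 0.682) were not called. Within the first cluster the genes did not follow 1 pattern over the single mutants: Foxq1 rose in both, Foxc1 was called without Eed, and Foxf2 was called in neither.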

How the data were processed

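The deposited values are intensity signals, 1 per probe set and array, deposited by the authors after MAS5, the tool named in the submitters' processing notes. Its version and settings: not given in the sources used here. Detection calls were not analysed here. On every array the linear signals had a trimmed mean of 100 (2% left off at each end), so no further normalization was applied. Array medians ran from 19.07 to 28.01.

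The 64 control probe sets were left out, and genes were named from the 34945 probe sets with 1 gene symbol. Probe sets above the array's 40th percentile on 3 or more of the 12 arrays entered, and each gene was tested on its brightest such probe set (by mean log2 value). Log2 values were taken after adding 5, which makes changes of dim genes smaller than the ratio of signals. A linear model with a mean for each genotype was fitted over all 12 arrays (limma 3.58.1, R 4.3.3, with an intensity trend) for 7 contrasts, and p-values were adjusted over all 13984 genes by Benjamini-Hochberg. The interaction is the effect of Ring1B loss in cells without Eed minus its effect in cells with Eed. The procedure was tested on simulated data.

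Every forkhead gene of the list is accounted for: genes called against wild type are given by array, the others by group values or by range. Of each other list up to 3 genes with the largest change in the double mutant are named, and some further genes are named beside them. The forkhead genes, the lists and the tests were chosen with earlier results of these data known. Alternatives were quantile normalization, median centring, added values of 1 and 20, no filter and a stricter filter, the mean of a gene's probe sets, all probe sets in the fit, a replicate block, no trend, and leaving out each array. Leaving out the arrays numbered 2 was chosen after seeing the data. Promoters are RefSeq entries of GRCm38.p6.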

Additional observations from a re-analysis of the deposited data

Results flagged for a closer look

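The effect of losing Ring1B on Foxk2 was called as different between cells with and without Eed, by a test of the difference itself, and the call was fragile. Ring1B loss changed Foxk2 by -0.58 in cells with Eed and by 0.38 in cells without it, a difference of 0.96 (SE 0.22, limma adjusted p = 0.0446) on the log2 scale. Signals were 197 ± 25.1 in wild type, 130 ± 4.31 without Ring1B, 168 ± 29.4 without Eed and 219 ± 23.7 without both (SD, n = 3 arrays each). The mean of the 5 Foxk2 probe sets gave 0.58 (limma adjusted p = 0.154). The call was also lost under median centring (0.79, limma adjusted p = 0.0914), with no filter (limma adjusted p = 0.0535), with no trend (limma adjusted p = 0.0569), with all probe sets in the fit (limma adjusted p = 0.0568) and without the arrays numbered 2 (0.88, limma adjusted p = 0.184). Leaving out a single array ended it in 10 of 12 cases, with limma adjusted p from 0.0302 to 0.135.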

How the results depend on the processing

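The numbers of forkhead genes called were 3, 5 and 8 higher and 2, 1 and 1 lower in Ring1B, Eed and double deficient cells against wild type, and no change against wild type that was called reversed its sign under any alternative run. The cause of the changes below was not tested. Shares over all genes were not counted with the stricter filter, with the replicate block or with arrays left out. Lower in Ring1B deficient cells fell to 1 under quantile normalization, the mean of probe sets, all probe sets in the fit and without the arrays numbered 2, and ran from 0 to 2 over single arrays left out. A stricter filter, which tested 19 of the genes, left 3 higher without Eed and 5 in the double mutant. Lower in the double mutant was 3 under quantile normalization and median centring and 2 with the replicate block. Against Ring1B deficient cells, higher in the double mutant was 3 under both scalings and without the arrays numbered 2, and ran from 2 to 8 over single arrays left out. Lower there was 1 under quantile normalization, 2 under median centring and 2 with the block, and 0 to 1 over single arrays (1, Foxo4, without wild type array 1). Against Eed deficient cells, higher was 3 with the block and 2 without the trend, and 0 to 1 over single arrays. Eed against Ring1B deficient was 0 under both scalings, with no filter and without the arrays numbered 2, 2 without the trend, and 0 to 1 over single arrays. The interaction, higher, was 0 under median centring, no filter, the mean of probe sets, no trend, all probe sets and without the arrays numbered 2, 2 with the block, and 0 to 1 over single arrays. Lower, it was 0 to 1 (Foxc2, without wild type array 3). The other counts ran from 7 to 9 (higher, double), 5 to 6 (higher, Eed) and 3 to 3 (higher, Ring1B) over single arrays.

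The replicate numbers were shared by the genotypes, and the main fit did not take them as pairs. Its p-values thus leave out what arrays of the same number share, and the run with the replicate block is given beside it. Deviations of arrays numbered 3 correlated at -0.048 to 0.179. For number 1 the range was 0.164 to 0.431 and for number 2 it was 0.265 to 0.614, and 4, 4 and 1 arrays of numbers 1, 2 and 3 correlated best with their own number. With the replicate block, 3 forkhead genes rose and 3 fell without Ring1B, against 6 higher and 1 lower in Eed deficient and 8 higher and 2 lower in double deficient cells, and 8 were higher in the double mutant than in Ring1B deficient cells. The block added calls for Foxn4, lower without Ring1B (limma adjusted p = 0.0473) and in the double mutant (limma adjusted p = 0.0396), for Foxf1 without Eed (limma adjusted p = 0.0213), for Foxd1 and Foxf2 against Eed deficient cells, and for Foxo4 and Foxp1, lower in the double mutant than in Ring1B deficient cells. Foxb1, Foxi1, Foxl1 and Foxp3 were too dim to test, and Foxc2 and Foxd1 lay under the threshold on all wild type arrays, so the size of their change depends on the value added before log2.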
